A study of Arabidopsis thaliana with 12 samples.

Results

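Cytosolic ribosomal protein genes encode the proteins of the large and small subunits of the ribosomes that translate nuclear mRNA. A set of 51 such genes of Arabidopsis thaliana, 32 of the large and 19 of the small subunit, was taken by locus identifier from the 28642 genes listed, and all 51 were found. The samples were first leaf pairs (leaves 1 and 2) of in vitro seedlings 10 days after stratification, at a stage labelled proliferation, in 4 groups of 3 biological replicates. Control plants grew on half-strength Murashige and Skoog medium, and the others on the same medium with 25 mM mannitol (a sugar alcohol that imposes mild osmotic stress), with 0.1 µM NAA (1-naphthaleneacetic acid, a synthetic auxin) or with both. No ecotype, mutant or transgene is named in the labels. Levels per library are not analysed here, because the library columns carry numbers that match no sample label. The values described are therefore the p-values of the authors' deposited table, 1 for each treatment against control. They do not tell whether a gene was higher or lower, by how much, or how replicates spread, and no source used here names the test behind them. Genes pass here when their deposited p, after Benjamini-Hochberg adjustment over all 28642 genes, is under 0.05. An unadjusted p below means the deposited p as listed, since whether the authors had already adjusted it is not stated.

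In plants each ribosomal protein is encoded by a small family of near-copies, and growing leaves need many ribosomes. The TOR kinase adjusts ribosome production to nutrients and auxin, and its target S6 kinase phosphorylates the small-subunit protein RPS6. Loss of single copies alters leaf shape in Arabidopsis, as in the pointed first leaf mutants of RPS18A and RPS13A, the piggyback mutants of PGY1, PGY2 and RPL5A and the oligocellula mutants of RPL5A and RPL5B. Promoters of these genes are known for a pair of elements, site II, which TCP factors bind, and the telo-box, named after its likeness to the plant telomere repeat.

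The upstream sequence was read for all 51 genes as the 250 bases before the annotated gene start in RefSeq TAIR10.1, and 34 windows held site II (TGGGCC or TGGGCT, either strand), or 66.7%, against 19.4% of 26704 protein-coding genes listed. At least 2 matches stood in 23 windows (45.1%, against 12.1% of all), with overlapping matches on opposite strands counted separately. The telo-box, searched as AAACCCTA on either strand, was in 8 windows (15.7%, against 4.45% of all), and 6 windows held both (11.8%, against 1.4%). In 1 of those 6 the matches overlap. A match is a match of letters only, and 29 of the 51 windows reach into another annotated gene. How many windows of all genes do so was not counted. The 4 windows printed here reach into none. They show RPL24A, the member with the smallest p, AT3G60770, the copy of RPS13A that passed nowhere, BBC1, which encodes RPL13 and holds both elements, and PGY2, which passed nowhere and has 4 site II matches. Capitals mark site II and telo-box matches. RPL24A lies at chr2:15352014-15352263 (minus strand), AT3G60770 at chr3:22461780-22462029 (minus strand), BBC1 at chr3:18168701-18168950 (minus strand) and PGY2 at chr1:12022975-12023224 (plus strand).
RPL24A: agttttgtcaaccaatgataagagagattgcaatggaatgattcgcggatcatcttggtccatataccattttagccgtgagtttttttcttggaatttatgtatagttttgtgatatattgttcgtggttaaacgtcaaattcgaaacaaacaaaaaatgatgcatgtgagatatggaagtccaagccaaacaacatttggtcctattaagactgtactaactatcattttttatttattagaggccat
AT3G60770: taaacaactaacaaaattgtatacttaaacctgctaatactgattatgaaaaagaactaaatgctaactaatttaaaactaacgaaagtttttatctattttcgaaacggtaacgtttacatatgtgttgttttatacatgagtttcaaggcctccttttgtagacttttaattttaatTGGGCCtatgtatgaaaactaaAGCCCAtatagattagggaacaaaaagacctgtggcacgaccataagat
BBC1: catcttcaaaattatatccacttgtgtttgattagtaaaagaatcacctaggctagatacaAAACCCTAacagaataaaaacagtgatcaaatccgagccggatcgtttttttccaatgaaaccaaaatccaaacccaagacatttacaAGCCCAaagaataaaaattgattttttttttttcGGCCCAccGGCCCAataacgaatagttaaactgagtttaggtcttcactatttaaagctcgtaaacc
PGY2: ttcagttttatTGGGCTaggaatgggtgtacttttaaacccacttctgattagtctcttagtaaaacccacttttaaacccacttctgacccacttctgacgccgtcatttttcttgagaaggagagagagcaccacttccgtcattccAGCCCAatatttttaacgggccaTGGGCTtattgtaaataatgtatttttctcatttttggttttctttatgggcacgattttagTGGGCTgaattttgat
BBC1 has 1 telo-box match and 3 of site II, AT3G60770 has 2 of site II, and RPL24A has no match. Site II matches in the 51 genes were most frequent within 50 bases of the gene start, in 31.4% of genes from 26 to 50 bases and 29.4% from 1 to 25 bases upstream. Over all genes the highest share was 6.03%, from 51 to 75 bases upstream. Of the 14 genes that passed in at least 1 comparison, 8 had site II and 3 the telo-box; of the 37 that passed in none, 26 and 5 did.

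**Figure D1:**
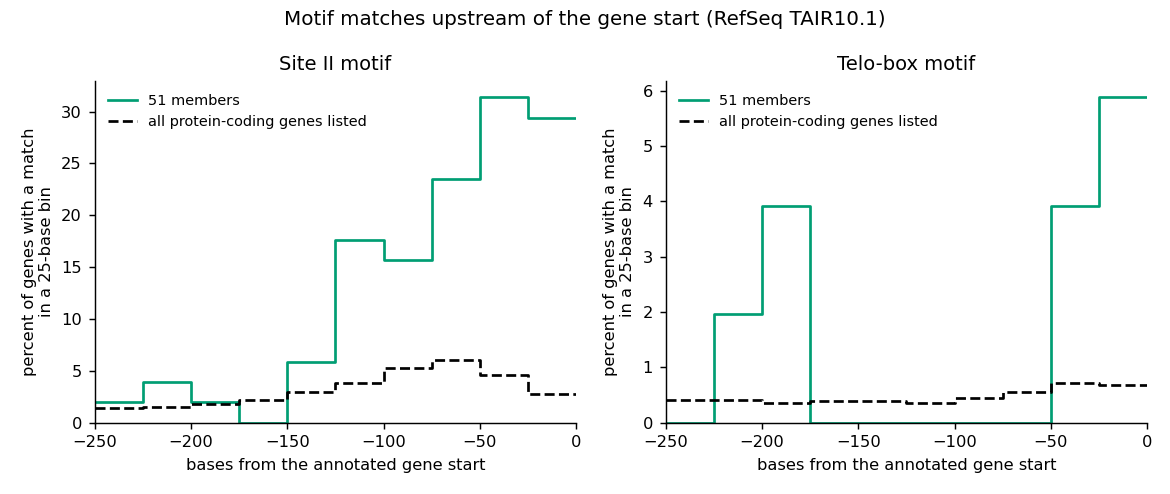
Share of genes with a site II match (left) or a telo-box match (right) in each 25-base bin before the annotated gene start, for the 51 ribosomal protein genes (green line) and for all protein-coding genes listed (dashed line). Site II matches in the 51 genes gather in the last 125 bases; the telo-box panel rests on 8 genes.

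None of the 51 genes passed under mannitol, 7 passed under NAA and 9 with both compounds. Of all genes listed 9.07%, 12.8% and 26.3% passed. None of the 51 was listed at a p of exactly 1, where 7049, 7272 and 6804 of all genes stood, and of the genes with a p under 1 the shares were 12%, 17.2% and 34.5%. The 3 comparisons share their control libraries, so values of a gene in different comparisons are not independent.

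Under mannitol the ribosomal protein genes stood at the high end of the p-values. With Benjamini-Hochberg adjustment 0 of 51 passed (background 9.07%), and 0 also had an unadjusted p under 0.05, where 17.9% of all genes and 23.8% of those with a p under 1 did. The median p of the 51 genes was 0.789 in the authors' deposited table, against 0.459 over all genes and 0.306 over those with a p under 1. A p above 0.5 was listed for 48 of the 51 genes (94.1%, against 47.9% of all genes and 30.8% of those with a p under 1), and none was below 0.1. The 3 others were RPL3B, a copy of a protein near the peptidyl transferase centre (p = 0.152 in the authors' deposited table), the S21e family gene AT3G53890 (0.282) and RPS18C (0.393). The highest p, 0.9996, was that of PGY2, which encodes RPL9. A high p does not show that levels were the same, since it gives no interval for the difference.

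**Figure D2:**
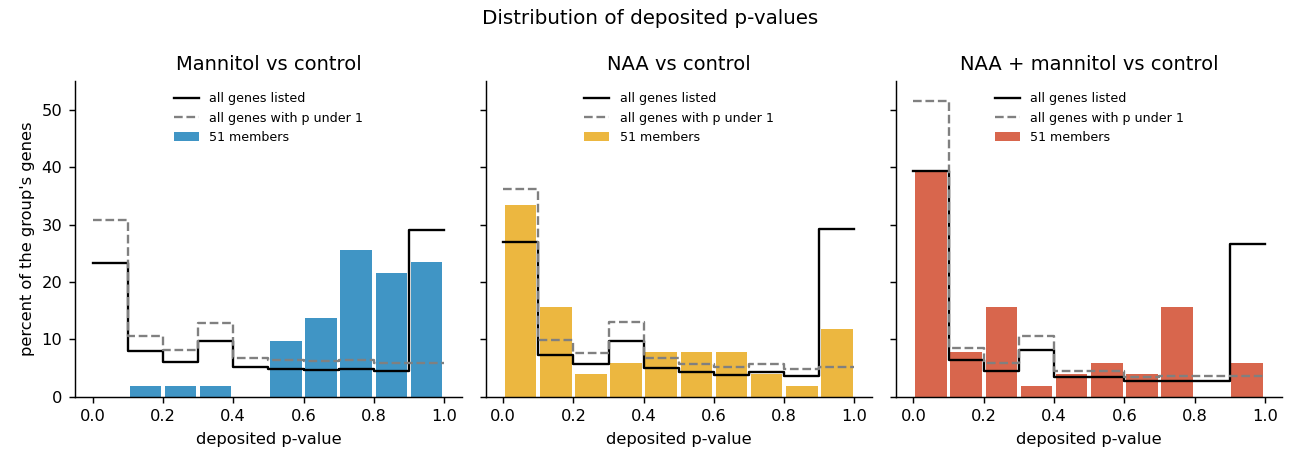
Percent of genes in 10 classes of deposited p-value for mannitol (left), NAA (middle) and both compounds (right) against control; bars show the 51 ribosomal protein genes, the solid line all genes listed and the dashed line all genes with a p under 1. Under mannitol the bars lie almost wholly above 0.5 (48 of 51 genes). The lowest class holds 17 genes under NAA (33.3%, against 27% of all genes and 36.2% of those with a p under 1). With both compounds it holds 20 genes (39.2%, against 39.3% and 51.6%).

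Under NAA 7 of the 51 genes passed (13.7%), between the 12.8% of all genes and the 17.2% of genes with a p under 1, so the share is near the background. They were 4 large-subunit genes (12.5% of 32) and 3 small-subunit genes (15.8% of 19). An unadjusted p under 0.05 was listed for 14 (27.5%, against 21.8% of all genes and 29.2% of those with a p under 1). The median p was 0.215 in the authors' deposited table, against 0.406 over all genes and 0.248 over those with a p under 1.

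Among large-subunit genes under NAA the smallest value was that of RPL23AB, a copy of the protein at the rim of the peptide exit tunnel (p = 0.0001 in the authors' deposited table, adjusted p = 0.00171). AT2G37190, an RPL12 gene whose product is annotated as ribosomal protein L11 family, followed (p = 0.00115 in the authors' deposited table, adjusted p = 0.0126). AT3G11250, of the L10 family that holds the stalk protein P0, also passed (p = 0.0037 in the authors' deposited table, adjusted p = 0.0325). AT1G70600, an RPL27a gene annotated in the L18e/L15 superfamily, passed last (p = 0.00574 in the authors' deposited table, adjusted p = 0.0458). Just outside the threshold stood PGY1, which encodes RPL10a (p = 0.00832 in the authors' deposited table, adjusted p = 0.061).

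Among small-subunit genes under NAA, RPS13A, needed in early leaf development, had the smallest p of all 51 (7.99e-14 in the authors' deposited table, adjusted p = 1.08e-11). AT1G34030, an RPS18 copy, came next (p = 0.000288 in the authors' deposited table, adjusted p = 0.00412). RPS6A and RPS6B, which encode the S6 kinase target, did not pass, with p of 0.586 and 0.991 in the authors' deposited table. The large-subunit gene RPL16A, annotated in RefSeq as induced by auxin treatment, stood at a p of 0.943 under NAA in the authors' deposited table. The 44 genes that did not pass ran from the 0.00832 of PGY1 to the 0.991 of RPS6B in the authors' deposited table.

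**Figure D3:**
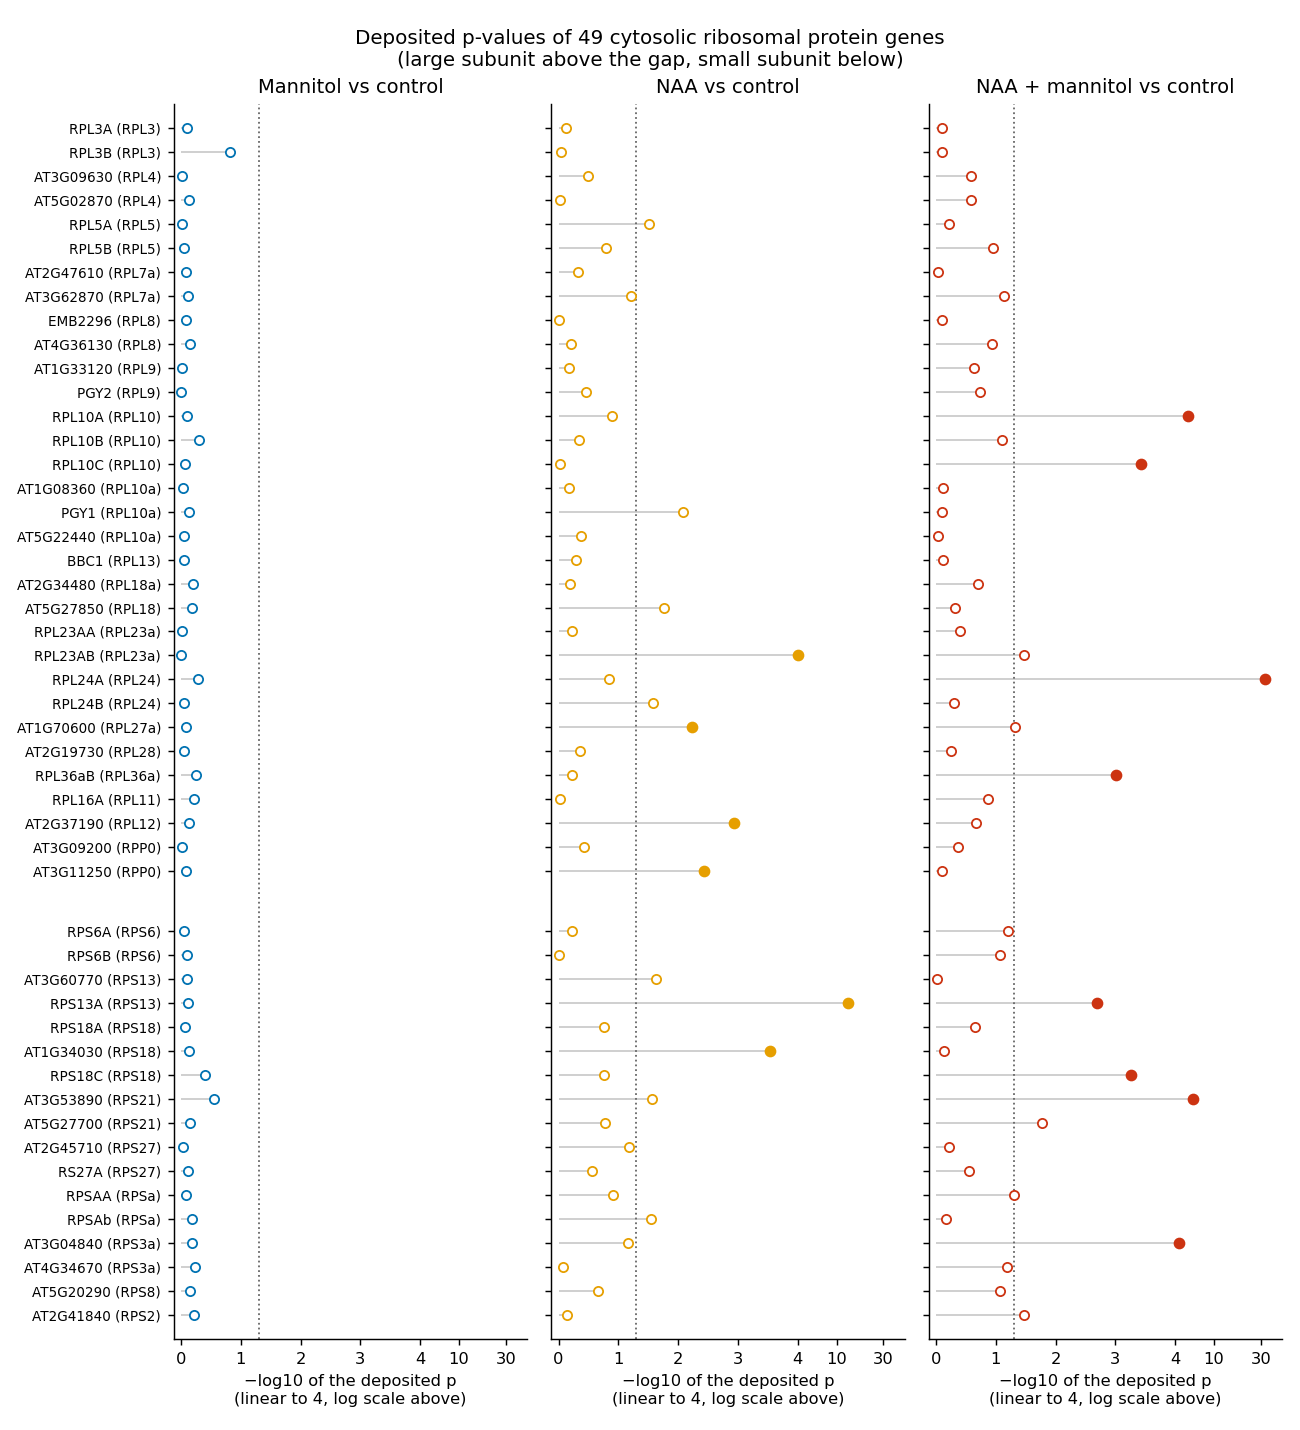
Deposited p-values of 49 of the 51 genes as -log10 p (linear to 4, log scale above) for mannitol, NAA and both compounds against control, with the family in parentheses; filled points passed at an adjusted p under 0.05 over all genes, open points did not, and the dotted line is an unadjusted p of 0.05. No point of the mannitol panel reaches the line, and RPS13A under NAA and RPL24A with both compounds stand farthest right.

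With both compounds 9 of the 51 genes passed (17.6%, background 26.3% of all genes, and 34.5% of genes with a p under 1). An unadjusted p under 0.05 was listed for 14 of the 51 (27.5%, against 33.9% of all genes and 44.5% of those with a p under 1). The median p was 0.214 in the authors' deposited table, below the 0.293 over all genes and above the 0.0864 over those with a p under 1. Of the small-subunit genes 5 of 19 passed (26.3%, as of all genes), and of the large-subunit genes 4 of 32 (12.5%).

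RPL24A led the large-subunit genes with both compounds (p = 6.42e-34 in the authors' deposited table, adjusted p = 3.79e-32). Its sister copy RPL24B, known for promoting the translation of auxin response factor mRNAs with upstream reading frames, did not pass (p = 0.505 in the authors' deposited table). RPL10A, a copy of a protein that joins late in subunit maturation, passed (p = 4.08e-06 in the authors' deposited table, adjusted p = 4.43e-05). So did RPL10C, also called SAG24 for its link to senescence (p = 0.00037 in the authors' deposited table, adjusted p = 0.00242). RPL36aB, the gene of the apiculata 2 locus, was the last of the 4 (p = 0.000964 in the authors' deposited table, adjusted p = 0.00554).

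On the small subunit AT3G53890, of the S21e family, had the smallest p with both compounds (7.46e-07 in the authors' deposited table, adjusted p = 9.48e-06). AT3G04840, of the S3Ae family on the platform of the subunit, followed (p = 4.25e-05 in the authors' deposited table, adjusted p = 0.000363). RPS18C also passed (p = 0.000541 in the authors' deposited table, adjusted p = 0.00338). RPS13A passed last (p = 0.00205 in the authors' deposited table, adjusted p = 0.0106), and the S21e copy AT5G27700 stood just outside (p = 0.0166, adjusted p = 0.0608). RPS6A and RPS6B had p of 0.0617 and 0.0861 in the authors' deposited table, and did not pass. The 42 genes that did not pass ran from 0.0166 to the 0.96 of AT3G60770 in the authors' deposited table.

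Across the 3 comparisons 14 of the 51 genes passed at least once (27.5%). The shares were 33% of all genes and 44.3% of those with a p under 1 in each comparison. Of the 14 genes, 12 passed in 1 comparison and 2, among them RPS13A, under NAA and again with both compounds. These 2 are 3.92% of the 51, while 12.2% of all genes passed in at least 2 comparisons. Among genes with a p under 1 in each comparison 16.4% did. For RPS13A the p was larger with both compounds (0.00205) than under NAA alone (7.99e-14) in the authors' deposited table. RPL24A had a p of 0.144 under NAA and 0.53 under mannitol in the authors' deposited table, and RPL23AB one of 0.0332 with both compounds. Whether the combined treatment differed from either compound alone was not tested.

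In each comparison most families had no copy that passed. The 51 genes cover 29 proteins, 19 of them with 2 or 3 copies in the set (41 genes). Under NAA 5 of the 19 families had some copies that passed and some that did not, 14 had none that passed, and in none did all copies pass. With both compounds 7 of 19 were split and 12 had no copy that passed, again with no family whose copies all passed. With few of the 51 genes passing, these counts say nothing particular to the copies. In the RPS13 family AT3G60770 had a p of 0.0232 under NAA and 0.96 with both compounds in the authors' deposited table, beside the calls of RPS13A. RPL23AA had a p of 0.594 under NAA in the authors' deposited table, and the P0 copy AT3G09200 one of 0.37. RPL10B, the third RPL10 copy, had a p of 0.0794 with both compounds in the authors' deposited table, and the S3Ae copy AT4G34670 one of 0.0661. A difference between copies was not tested, and a copy that missed the threshold is not shown to differ from one that passed.

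**Figure D4:**
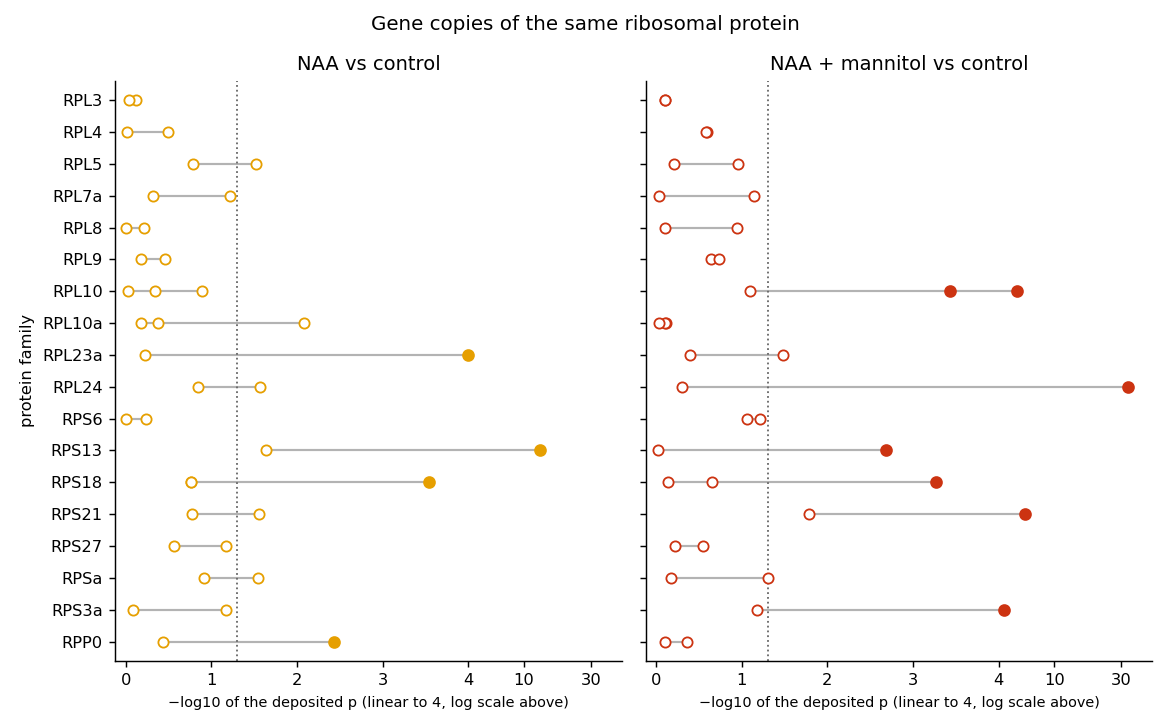
Deposited p-values (-log10, linear to 4, log scale above) of the gene copies of 18 of the 19 ribosomal proteins under NAA (left) and both compounds (right) against control; each point is a gene, grey lines join the copies of a protein, and filled points passed. Filled and open points share a line in 4 of the 18 families under NAA and in 6 with both compounds.

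How far reads can be told apart between copies bears on these values. Coding sequences of copies, compared in 25 pairs, were 78.4% to 99.1% identical (median 87.2%), and 3 pairs exceeded 90%. The closest were the neighbouring RPL9 genes AT1G33120 and PGY2, which share a run of 458 identical coding bases, so their values are uncertain. The RPS18 family is shown because different copies passed in different comparisons. Its copies AT1G34030 and RPS18C are 91.1% identical, among the 3 closest pairs, and RPS18A is 87.1% and 87.6% identical to them. The 3 copies differ at 76 of 459 coding positions. AT1G34030 passed under NAA, RPS18C with both compounds, and RPS18A in neither (p = 0.172 and 0.223 in the authors' deposited table). The first 90 coding bases, counted from the start codon in RefSeq TAIR10.1, hold 18 of the differing positions, marked here in capitals.
RPS18A: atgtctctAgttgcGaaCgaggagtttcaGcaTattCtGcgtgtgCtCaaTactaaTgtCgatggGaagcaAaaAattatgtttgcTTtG
AT1G34030: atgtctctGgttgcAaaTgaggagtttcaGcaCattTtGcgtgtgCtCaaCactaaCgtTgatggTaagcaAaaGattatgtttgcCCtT
RPS18C: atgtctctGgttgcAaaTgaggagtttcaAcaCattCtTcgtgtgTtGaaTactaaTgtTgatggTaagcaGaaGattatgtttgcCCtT
The longest run shared by a pair of RPS18 coding sequences was 38 bases, between AT1G34030 and RPS18C. Over the 25 pairs of all families the median longest shared run was 36 bases. No source used here gives the read length or the treatment of reads that match several copies.

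Other genes of the ribosome were counted beside these 51. A further 57 genes have a product name of a cytosolic ribosomal protein or its domain family, and 1, 9 and 12 of them passed under mannitol, NAA and both compounds (1.75%, 15.8% and 21.1%, against 9.07%, 12.8% and 26.3% of all genes). Their median p under mannitol was 0.805 in the authors' deposited table, near the 0.789 of the 51 genes. Counting only genes with a p under 1, the shares were 1.96%, 17.6% and 23.5%, against 12%, 17.2% and 34.5% over all. A match by name does not show that each of the 57 is part of the cytosolic ribosome. Of 24 nuclear genes for plastid ribosomal proteins, which serve translation in chloroplasts, 1, 4 and 21 passed (4.17%, 16.7% and 87.5%). With both compounds the plastid share stands beside 17.6% of the 51 cytosolic genes, 26.3% of all genes and 34.5% of those with a p under 1. Of 33 ribosome assembly factors and subunits of the rRNA polymerase, 3, 2 and 13 passed (9.09%, 6.06% and 39.4%). The shares of all genes were 9.07%, 12.8% and 26.3%. Counting only genes with a p under 1, 40.6% of the assembly list passed with both compounds, against 34.5% over all. The nucleolin gene NUC1 passed in no comparison (p = 0.732, 0.697 and 0.383 for mannitol, NAA and both in the authors' deposited table). The gene of the anti-association factor eIF6A was listed at a p of 0 with both compounds in the authors' deposited table. It was 1 of 423 genes listed so in that comparison.

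Of 8 genes of the TOR pathway and of regulators of ribosomal protein genes, 2, 3 and 4 passed under mannitol, NAA and both (25%, 37.5% and 50%, against 9.07%, 12.8% and 26.3% of all genes). TOR itself passed under mannitol (adjusted p = 1.96e-05), under NAA (0.0386) and with both compounds (0.00298), from the authors' deposited table. S6K1 had p of 0.553, 0.377 and 0.297, and S6K2 of 0.156, 0.0673 and 0.0148, in the authors' deposited table, and neither passed. TCP20, a factor that binds site II, passed with both compounds (adjusted p = 0.0196 from the authors' deposited table) and not under mannitol (0.0596) or NAA (1). Of 5 translation elongation factor genes, 0, 0 and 2 passed (40% with both compounds). With both compounds 26.3% of all genes passed, and 34.5% of those with a p under 1. None of the 5 had an unadjusted p under 0.05 for mannitol or NAA. These lists differ in size, and no difference between them was tested.

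**Figure D5:**
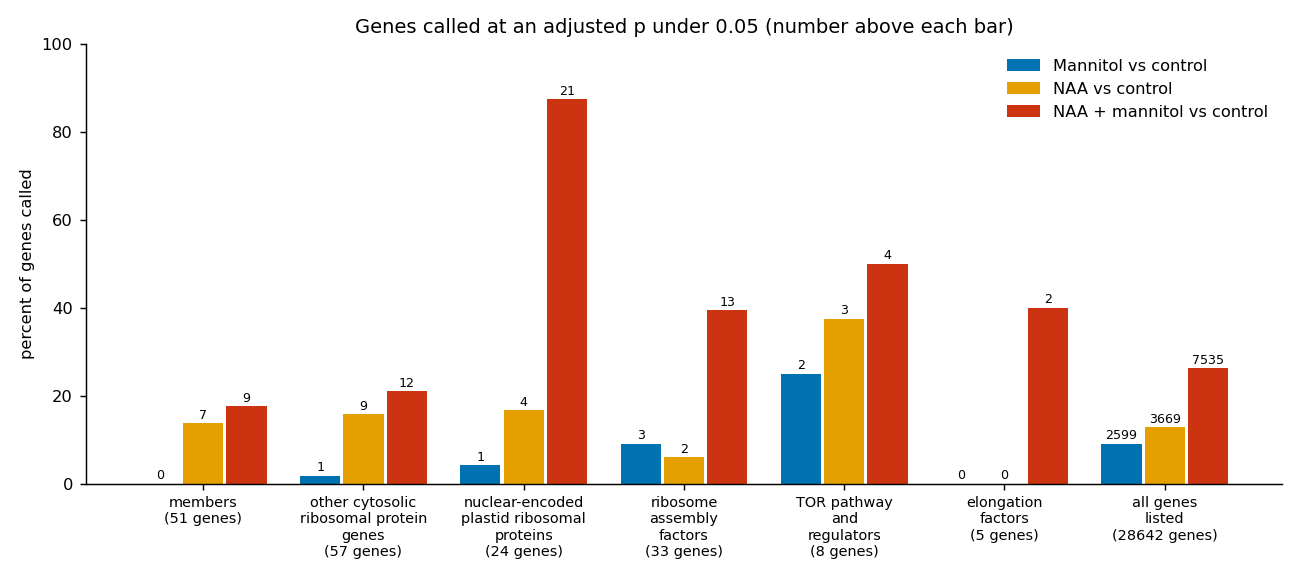
Percent of genes that passed at an adjusted p under 0.05 over all genes, by list and comparison (bars start at 0), with the number of genes above each bar and the list size under its name. The 51 members stand at 0, 7 and 9 genes, and the plastid ribosomal protein list reaches 21 of 24 with both compounds.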

How the data were processed

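RNA from 12 leaf samples was sequenced from stranded mRNA libraries, per the labels' protocols, on build TAIR10, per the submitters' notes on processing. No source used here gives the aligner, the counting or the statistical test. The p-values are the authors' own, deposited as 1 column per treatment against control, and per the file headers they are called detection p-values; whether they were adjusted or count replicates separately is not stated. The 24 library columns, numbered in a way no label matches, were not used, so the planned quasi-likelihood count model and depth are not analysed here. The p-values took the place of that model.

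P-values were adjusted by the Benjamini-Hochberg method over 28642 genes (Python 3.11.15, numpy 2.4.6, scipy 1.17.1), checked on simulated data, and a gene passed under 0.05. Every one of the 51 genes may be named, but 2 enter the counts without being reported here; of other genes TOR, S6K1, S6K2, TCP20 and NUC1, and up to 4 per list with the smallest adjusted p. Members and lists were chosen with earlier results of these data known. Protein families are the usual plant names. Promoters and coding sequences (longest per gene, aligned globally with Biopython 1.88) come from RefSeq TAIR10.1, to which all 51 loci matched; it shares its nuclear chromosomes with TAIR10, and the deposited files hold no coordinates. Motif searches were chosen after the p-values were seen. No intervals are given because the deposited p-values carry no size of a difference and no spread of replicates.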

Additional observations from a re-analysis of the deposited data

How the results depend on the processing

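Under mannitol the smallest p of the 51 genes was 0.152, so no alternative run could call a gene. Under NAA, where 7 passed, 1 passed with Bonferroni adjustment, 3 with Benjamini-Yekutieli adjustment, 3 at an adjusted p under 0.01 and 14 at an unadjusted 0.05. Of all genes 3.31%, 7.17%, 8.62% and 21.8% passed at these settings. With both compounds, where 9 passed, 2 passed with Bonferroni adjustment and 14 at an unadjusted 0.05, against 8.46% and 33.9% of all genes. Each p was also read as a normal z and referred to a t distribution with 4 degrees of freedom, with Benjamini-Hochberg adjustment in Python. A listed p of 0 was given the largest z that the software can hold. On this reading 0 of the 51 passed under NAA (14 have an unadjusted deposited p under 0.05), where 0.29% of all genes passed. With both compounds 1 passed, RPL24A, where 2.13% of all genes passed. Under NAA 83 of all genes passed and 74 were listed at 0, so few other genes passed. With both compounds 610 passed and 423 were listed at 0. The t reading therefore does not tell how firm the NAA calls are. All other alternatives left the counts within 1.5 times. Under stricter settings 11 of the 16 calls held at an adjusted 0.01, 10 with Benjamini-Yekutieli, 3 with Bonferroni and 1 with the t reading. No paired analysis was possible because no column can be tied to a replicate. For the same reason other count models, scalings, filters and leaving out replicates were not run, and what depth limits is not analysed here.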
